A study of Mus musculus with 3 samples.

Results

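The 6 genes described here encode proteins of the mouse that recognise, answer to or mask foreign and misplaced nucleic acid in the cell: Ddx58, Ifih1, Dhx58, Zbp1, Eif2ak2 and Adar. They were chosen by name, as the probes of a CodeLink array whose annotated gene symbol is one of the 6, and they comprised 7 of 20289 probes and 6 of 13697 genes. The arrays measured messenger RNA of the liver of E14.5 mouse embryos. The 3 genotypes had 1 array each. They were a wild-type, a DNase II-deficient genotype, and a double mutant that lacks IFN-IR as well as DNase II (DNase II-/- and IFN-IR-/- in the labels). DNase II is a lysosomal enzyme that macrophages need to break down the DNA of the cells and nuclei they engulf, and IFN-IR is the receptor for type I interferon. The sources used here do not give the strain, the form of each allele or how many embryos were behind each array. With 1 array per genotype no difference has a replicate check, no test or standard error was computed, and the number of arrays limits the precision.

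RIG-I-like receptors are helicases that scan the cytosol for RNA with the features of a virus. Ddx58 encodes RIG-I, which binds double-stranded RNA ends that carry a triphosphate, and Ifih1 encodes MDA5, which binds long double-stranded RNA. Both pass the signal through caspase recruitment domains to the mitochondrial adaptor MAVS, which leads to the production of type I interferon. Dhx58 encodes LGP2, a relative without those domains that modulates the other two. Zbp1 encodes a sensor of nucleic acid in the left-handed Z form that can start necroptosis, and Eif2ak2 encodes PKR, a kinase that double-stranded RNA activates and that halts translation by phosphorylating eIF2 alpha. Adar encodes the RNA-editing enzyme ADAR1, which converts adenosine to inosine in double-stranded RNA and so keeps the cell's own RNA from setting off MDA5, PKR and ZBP1. Genes of this group are known as interferon-stimulated genes, and what set their messenger RNA in these arrays was not tested.

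The DNA sequence through which signalling from the type I interferon receptor acts on many genes is the interferon-stimulated response element. The sequences around the start sites are shown as a description, and a role of the element in the differences between the arrays was not tested. RefSeq start sites (GRCm38.p6) were found for 4 of the 6 genes, at 6 sites in all, of which 3 belong to Adar. The core of the response element, taken as GAAA, any 2 bases and GAAA again, was searched on both strands. In the 250 bases before the start it matched at 0 of the 6 sites, against 2.98% of 32851 start sites of all genes. With the first 50 bases after the start included, a window chosen after the sequences were seen, it matched at 3 of the 6, against 3.44% of all. Those matches lay from base 3 to 12 after the Ddx58 start, 33 to 42 after the Ifih1 start and 19 to 28 after the Eif2ak2 start. At the third Adar start a shorter core, GAAANNGAA, which every full match contains and which was also chosen after the sequences were seen, matched from base 34 to 42, and 8.56% of all start sites hold it in the same window. The 30 bases around each match are given 5′ to 3′ on the strand of the gene, with the match in capitals. The Ddx58 window is chr4:40239804-40239833 and the Ifih1 window chr2:62646206-62646235, both on the minus strand. The Eif2ak2 window is chr17:78882535-78882564 on the minus strand, and the Adar window is chr3:89730738-89730767 on the plus strand. The Ddx58 match is on the strand opposite to the gene and so appears as its reverse complement.
Ddx58: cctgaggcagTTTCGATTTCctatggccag
Ifih1: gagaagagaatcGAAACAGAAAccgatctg
Eif2ak2: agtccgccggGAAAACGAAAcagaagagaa
Adar: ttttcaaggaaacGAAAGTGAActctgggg

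**Figure D1:**
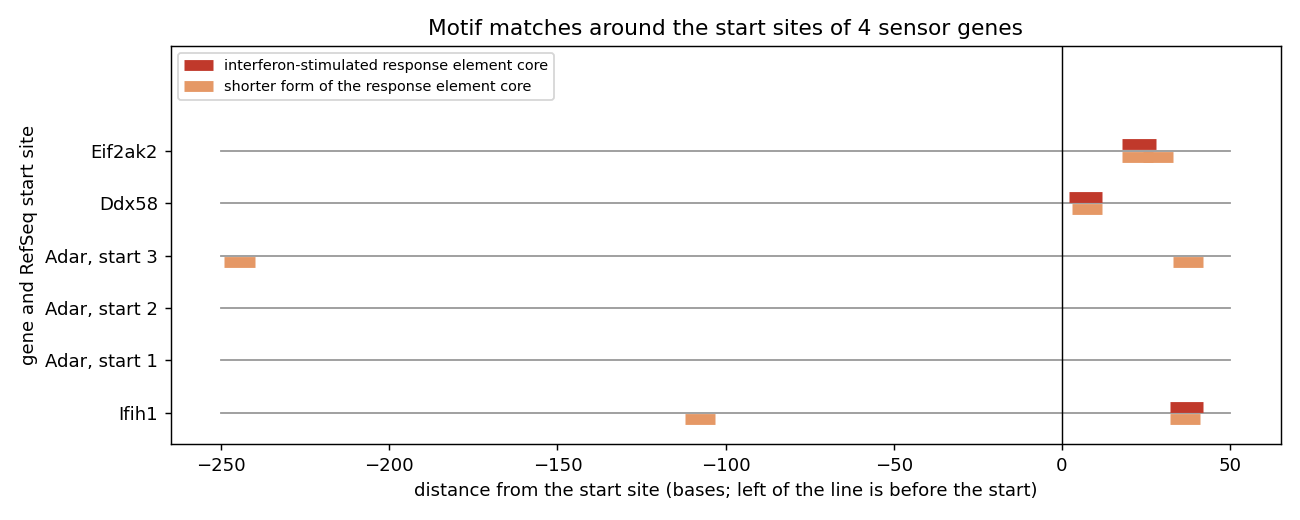
Motif matches around 6 RefSeq start sites of 4 genes, with distance from the start site in bases on the horizontal axis and 1 line per start site. Red bars are the full core and orange bars the shorter core GAAANNGAA; all red bars lie in the first 50 bases after a start, and the first and second Adar starts hold no match in this window.

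Levels are the authors' normalised intensity, which has no unit and a median near 1 in each array: 0.958 in wild-type, 0.959 in DNase II-deficient and 0.964 in double-deficient. A value under the array's 25th percentile, 0.162, 0.159 and 0.163 in the same order, was treated as not measured and set to that floor. In that order the probe of Dnase2a, which encodes DNase II, read 40.4, 48.6 and 39.7, and that of Ifnar1, which encodes one chain of IFN-IR, read 3.60, 4.66 and 3.17. Whether either probe falls inside a deleted part is unknown here, so the genotypes rest on the labels. Fetal liver genes were bright in each array, with Afp at 582.5, 885.1 and 568.5 and Hba-a1 at 631.7, 481.7 and 546.8.

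All 6 genes, and all 7 of their probes, had their highest value in the array labelled DNase II-deficient. In the array labelled double-deficient the genes were within 1.56-fold of wild-type, apart from Zbp1, which was 2.95-fold above it, and Dhx58, which was under the floor in both arrays. The levels fell into 3 kinds. Ddx58, Ifih1 and Adar were above the array median in all 3 arrays, Zbp1 and Eif2ak2 were above it in the DNase II-deficient array alone, and Dhx58 was below it in each array.

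**Figure D2:**
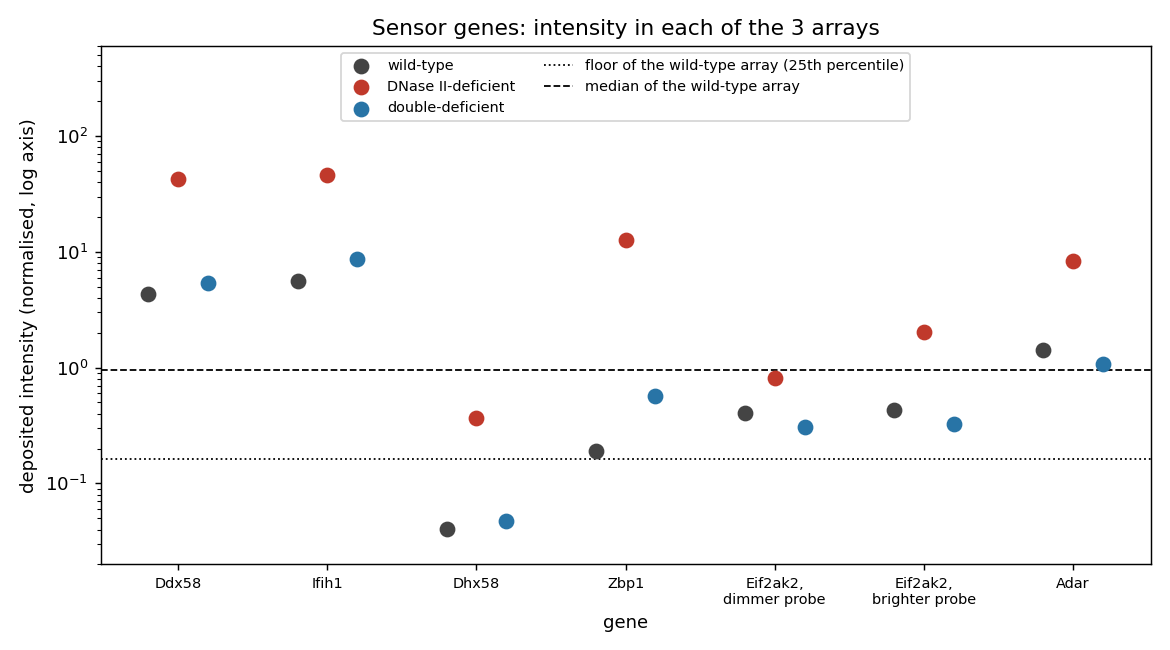
Deposited normalised intensity (log axis) of the 7 probes of the 6 genes, with 1 point per array: grey for wild-type, red for DNase II-deficient and blue for double-deficient. The red point is the highest of every probe, and the Dhx58 points of the other two arrays lie under the dotted floor line.

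Among the receptors, Ddx58 (RIG-I) read 4.28 in wild-type, 42.9 in the DNase II-deficient array and 5.43 in the double-deficient array. It went from percentile 72.6 of all probes in wild-type to percentile 96.3 without DNase II, and stood at percentile 76.5 in the double mutant. The array without DNase II thus stood alone, and the other two were close. The value was 10.01-fold higher in DNase II-deficient than in wild-type, a log2 difference of 3.32. The 500 genes nearest in mean level had differences with a spread of 0.44 (1.48 times the median absolute deviation), which describes these arrays and not replicates. Between the mutants Ddx58 was 7.89-fold lower in the double-deficient array, and there it stayed 1.27-fold above wild-type.

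Ifih1 (MDA5) read 5.56 in wild-type, 46.04 without DNase II and 8.67 in the double mutant. As with Ddx58, the middle value stood apart, but the double-deficient value did not return as far. Ifih1 was 8.28-fold higher without DNase II (log2 difference 3.05, spread of genes of like level 0.46) and 5.31-fold lower in the double mutant than in the DNase II-deficient array. Against wild-type the double mutant was 1.56-fold higher, a log2 difference of 0.64 beside a spread of 0.29 among genes of like level. That placed Ifih1 at rank 348 from the top of 8158 genes, whereas Ddx58 stood at rank 910.

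Dhx58 (LGP2) was dim throughout, at 0.0406, 0.364 and 0.0471. The wild-type and double-deficient values were under the floor, and the DNase II-deficient value was above the floor but under the array median. Its value without DNase II was therefore at least 2.25-fold that of wild-type and at least 2.23-fold that of the double mutant. These bounds come from the floor and not from the 2 dim readings, and no fold is given between wild-type and double-deficient. Against wild-type the log2 bound was 1.17, beside a spread of 1.26 among the 500 dimmest genes that passed the level filter. Between the mutants it was -1.16, beside a spread of 0.86 found in the same way. Dhx58 did not pass that filter, so neither is a spread at its own level, and a bound gives only the least size. Whether the differences of this single dim probe exceed the spread at its level cannot be told.

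Zbp1, the Z-nucleic acid sensor, read 0.192 in wild-type, 12.6 in the DNase II-deficient array and 0.566 in the double-deficient array. The wild-type value lay just above the floor and the double-deficient value below the array median, so the low side of each fold rests on a dim reading. Zbp1 was 65.8-fold higher without DNase II, a log2 difference of 6.04, which ranked 10 among 8383 genes. With the floor raised to the array median, which turns the fold into a lower bound, the log2 difference was 3.72. The double mutant was 22.3-fold lower than the DNase II-deficient array. It remained 2.95-fold above wild-type, but both arrays of that comparison were under the array median, so the gene did not enter the count below.

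Eif2ak2 (PKR) had a pair of probes. The brighter one, which stands for the gene here, read 0.428 in wild-type, 2.03 without DNase II and 0.326 in the double mutant, and the dimmer one read 0.408, 0.820 and 0.305. The order of the arrays was the same for both probes, but the size was not. The brighter probe was 4.74-fold higher without DNase II and 6.23-fold lower in the double mutant than in the DNase II-deficient array. The dimmer one was 2.01-fold higher and 2.69-fold lower, and it stayed under the array median in every array. Which transcripts each probe reads was not tested. The spread of differences among genes of like level was 0.71 for the brighter probe, against its log2 difference of 2.25.

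Adar (ADAR1), which edits double-stranded RNA, read 1.43 in wild-type, 8.40 in the DNase II-deficient array and 1.08 in the double-deficient array. It was above the array median in each, and 5.86-fold higher without DNase II (log2 difference 2.55, spread among genes of like level 0.49). The double mutant was 7.78-fold lower than the DNase II-deficient array and 1.33-fold below wild-type. Adar is transcribed from a constitutive start for a short protein and an interferon-inducible start for a long one. The single probe was not assigned to either form.

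A gene was counted if either array of the comparison had it above its median, and a difference counted from 2-fold. Between DNase II-deficient and wild-type 8383 genes were compared, and 7.67% of them were at least 2-fold higher. Of the 6 sensor genes 5 were compared, and those 5 were past 2-fold and also past 4-fold on the higher side, where the 4-fold share of all genes was 2.66%. Zbp1 and Eif2ak2 entered that count only through the array in which they were high, so they had to differ, whereas Ddx58, Ifih1 and Adar were above the median in both arrays. The median log2 difference over all 6, with Dhx58 at its bound, was 2.80, against -0.21 for all genes compared. Dhx58 was the one left out. In order of size the log2 differences were 6.04 for Zbp1, 3.32 for Ddx58, 3.05 for Ifih1, 2.55 for Adar and 2.25 for Eif2ak2. Ddx58 and Ifih1 were apart by less than the spread among genes of like level, as were Adar and Eif2ak2.

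In double-deficient minus DNase II-deficient 8303 genes were compared and 4.85% were at least 2-fold lower. The same 5 sensor genes were compared, Zbp1 and Eif2ak2 again through the DNase II-deficient array alone, and 5 were past 2-fold and also past 4-fold on the lower side, where the 4-fold share of all genes was 1.35%. The median log2 difference of the 6 was -2.80, with Dhx58 at its bound, against 0.11 for all genes compared. The log2 differences were -4.48 for Zbp1, -2.98 for Ddx58, -2.96 for Adar, -2.64 for Eif2ak2 and -2.41 for Ifih1. This comparison shares the DNase II-deficient array with the previous one, so a high reading there would move both.

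Double-deficient minus wild-type does not use that array. Among 8158 genes, a share of 2.05% lay at or beyond 2-fold on the higher side and 0.735% on the lower side. Of the 6 sensor genes 3 could be compared, and 0 reached 2-fold in either direction. Ddx58 and Ifih1 had log2 differences of 0.34 and 0.64, and Adar of -0.41, beside a median of -0.08 for all genes compared. The spreads among genes of like level were 0.25, 0.29 and 0.30. Ddx58 and Ifih1 thus read above wild-type and Adar below it, each by more than that spread, which many other genes also exceed. Ddx58 ranked 910 from the top and Adar 951 from the bottom of the 8158 genes. Both lay inside the 5th to 95th percentile of all genes compared, -0.58 to 0.58, and Ifih1 lay above it. With 1 array per genotype, none of the 3 differences can be told apart from variation between arrays. Below the level filter, Zbp1 had a difference of 1.56 and Eif2ak2 of -0.39. The spread of 0.54 found for both came from the 500 dimmest genes that passed the filter. It is therefore not a spread at their own level. With the floor at the array median neither difference could be measured, and the 0.01 left for both is the gap between floors. The sign of each of these 5 differences was the same under all 4 other scalings tried.

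**Figure D3:**
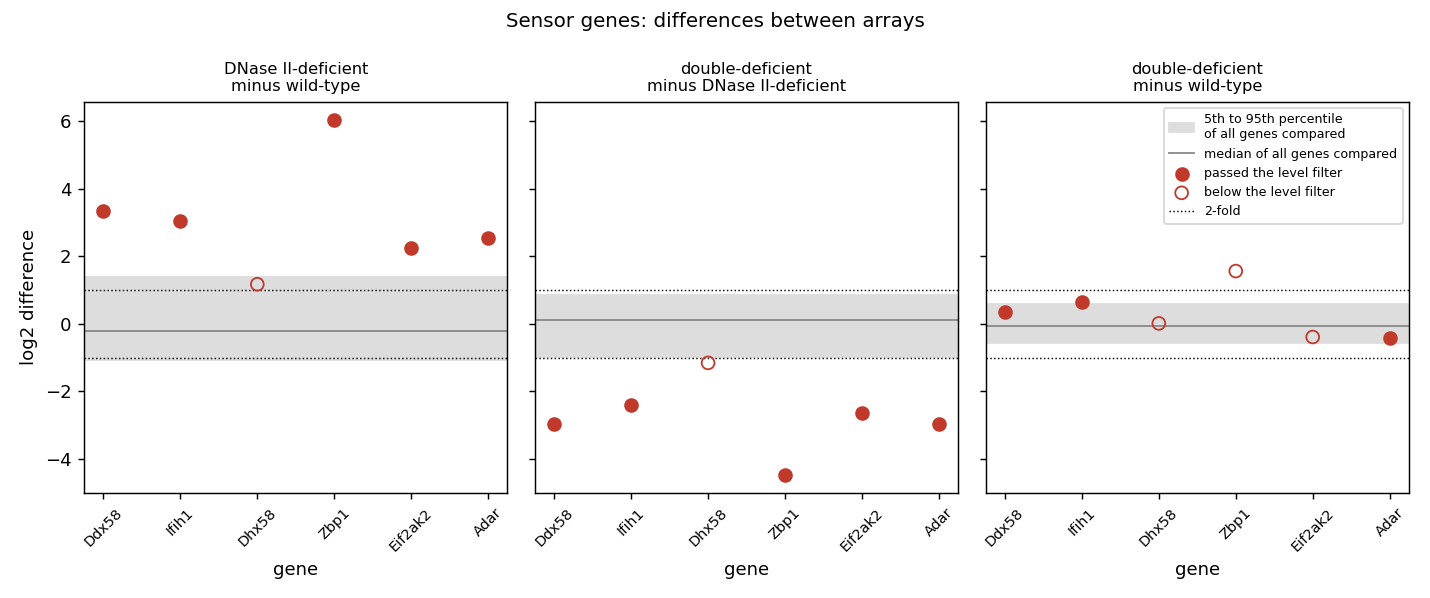
Log2 difference of each of the 6 genes in the 3 comparisons, with filled points for genes that passed the level filter and open points for those that did not. The grey band is the 5th to 95th percentile of all genes compared; in the first comparison all filled points lie above it and in the second all lie below it, while in the third Ifih1 at 0.64 and the unfiltered Zbp1 at 1.56 lie above it.

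**Figure D4:**
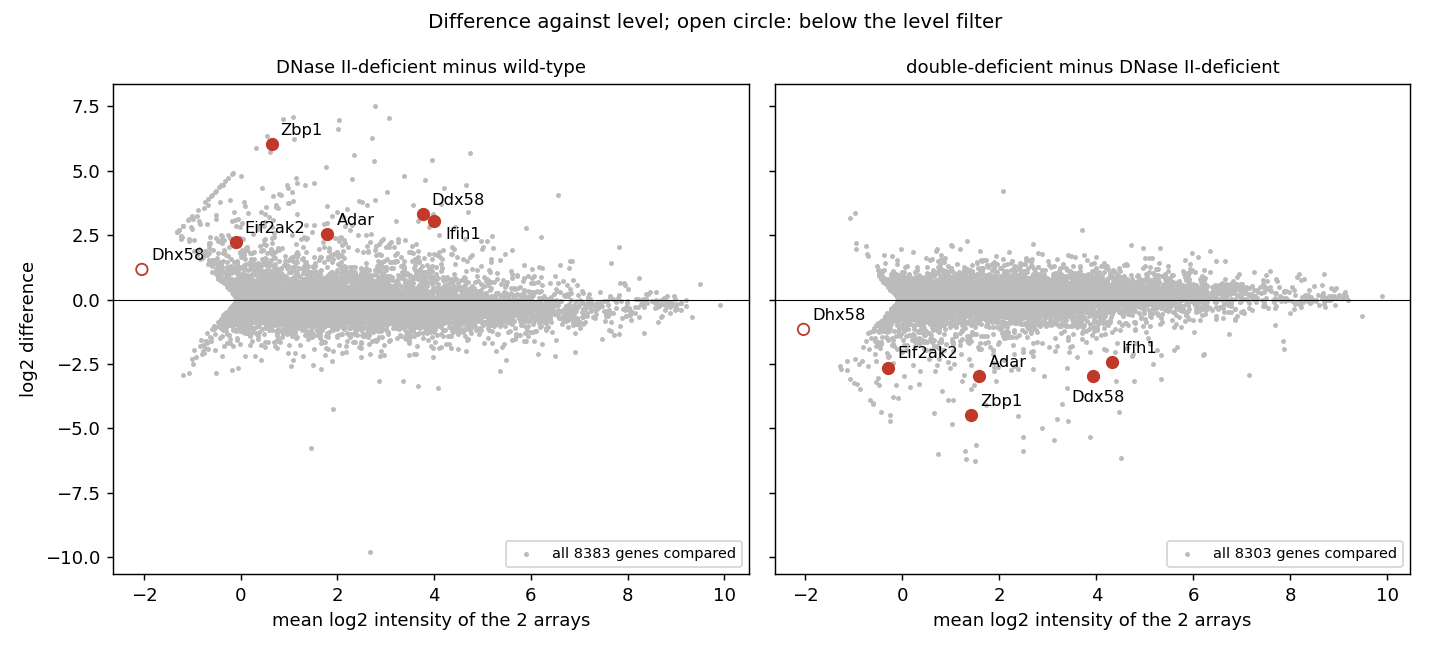
Log2 difference against mean log2 intensity for all genes compared (grey) and the 6 genes (red), for the 2 comparisons that involve the DNase II-deficient array. Ddx58 and Ifih1 lie well inside the range of measured levels, whereas Eif2ak2 and the unfiltered Dhx58 (open circle) lie at the dim end, where the grey cloud is widest.

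The genes with the most similar pattern were sought over the 3 arrays, by the Euclidean distance between the pair of log2 differences from wild-type. The search covered 8426 other genes above the array median in at least 1 array and at the floor in none. For Ddx58 the nearest genes were Herc6 (distance 0.19), Oas1e (0.27) and Klrk1 (0.29). For Ifih1 they were Tlr3 (0.03), Ccn2 (0.08) and Oas1e (0.13). For Eif2ak2 they were Kcnj8 (0.15), Irf9 (0.17) and Uba7 (0.30). The gene nearest to Adar was Eif2ak2 (0.31), followed by Kcnj8 (0.36) and Lgals3bp (0.37) although Adar was not among the 3 genes nearest to Eif2ak2. Zbp1 had no gene as near, with Oasl2 at 0.77, Hspa1b at 0.83 and Oasl1 at 1.14. Such a distance over 3 arrays describes a likeness and cannot place a gene with precision. In wild-type Tlr3, Oas1e and Klrk1 read 0.190, 0.171 and 0.172, just above the floor of 0.162, so their differences rest on dim readings.

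Other helicases were picked by symbol alone, as genes named Ddx or Dhx with a number. A shared name gives no measure of how closely they are related to the receptors. Of 33 on the array, 27 were compared between DNase II-deficient and wild-type. Of these 0 were past 2-fold on the higher side and 1 on the lower side, beside 643 and 517 of all 8383 genes. Their median log2 difference was -0.33 against -0.21 for all genes compared. The highest was Ddx24, at 2.93 in wild-type, 4.88 without DNase II and 2.64 in the double mutant, and the values that follow are given in this order. The lowest was Ddx21, a nucleolar helicase of ribosome formation, at 4.63, 2.14 and 4.61. Its log2 difference of -1.11 was between -1.02 and -0.91 under the 4 other scalings, so its 2-fold call depends on the scaling. The highest of the 27 differences, 0.73 for Ddx24, was below the 3.32 of Ddx58 and the 3.05 of Ifih1.

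Downstream of the receptors, 14 adaptor and signalling genes were measured and 13 were compared. Of these 1 was at least 2-fold higher without DNase II, a share near the 7.67% of all genes: Irf7, a transcription factor through which interferon amplifies its own production. It read 3.75, 192.6 and 2.68 and was 51.4-fold higher, then 71.9-fold lower in the double mutant. The median log2 difference of those compared was 0.14, against -0.21 for all genes. Mavs, the adaptor of RIG-I and MDA5, read 5.63, 2.97 and 4.34. Its log2 difference from wild-type was -0.93 without DNase II, opposite in sign to its receptors and short of 2-fold. It was -0.83 to -0.72 under the other scalings, beside a spread of 0.52 among genes of like level. A difference below 0 was common, as 34.3% of all genes compared were above 0. Traf2, which carries the signal on from adaptors, read 1.29, 0.767 and 1.23. Irf3, the factor that MAVS signalling activates, read 4.02, 2.64 and 3.74, and the kinase gene Tbk1 read 3.73, 4.22 and 4.73. Both were named after their values were seen.

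Of 11 regulators of the receptors 2 were at least 2-fold higher without DNase II, beside 7.67% of all genes. Their median log2 difference was 0.60, against -0.21 for all genes compared. With the level filter at the 75th percentile 4 remained, of which 0 were past 2-fold, and the median was -0.37. Trim25, a ubiquitin ligase that activates RIG-I, read 1.17, 2.70 and 0.888. Isg15, a ubiquitin-like modifier, read 0.213, 1.08 and 0.303, and it was compared only because of its value without DNase II. Zc3hav1, an antiviral zinc finger protein that also binds RIG-I, read 2.45, 4.32 and 1.62. With Zc3hav1 added, 3 of the 11 were at least 2-fold lower in the double mutant than in the DNase II-deficient array, beside 4.85% of all genes.

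The relatives and partners of PKR and ADAR1 were taken from 2 lists. Of 8 measured genes of the eIF2 kinases and their pathway 1 was at least 2-fold higher without DNase II, beside 7.67% of all genes. The median of the 8 was -0.01 as deposited and up to 0.20 under the other scalings. The gene past 2-fold was Ddit3, the stress transcription factor CHOP, at 13.4, 34.8 and 9.20. The kinase genes other than Eif2ak2 were nearer to wild-type: Eif2ak1 read 2.76, 2.63 and 2.66, and Eif2ak4 read 1.89, 1.96 and 1.82. Eif2ak3, which encodes PERK of the endoplasmic reticulum, read 2.97, 5.30 and 3.55, and Ppp1r15a, which reverses eIF2 phosphorylation, read 51.2, 34.0 and 41.4. Among genes of double-stranded RNA binding and editing 11 were measured, 7 were compared and 0 differed by 2-fold in any of the 3 comparisons. Of all genes, 643 were higher and 517 lower of 8383 in the first comparison. They were 258 and 403 of 8303 in the second, and 167 and 60 of 8158 in the third. With 7 genes, a count of 0 is near those shares. The median of the 7 in the first comparison was -0.08 as deposited and up to 0.15 under the other scalings. The largest differences there were those of Tarbp2, at 7.32, 4.42 and 5.78, Dicer1, at 3.42, 2.24 and 3.70, and Ilf2, at 3.15, 2.23 and 2.54. Of the 11 genes measured in that list, 3 were under the floor in all 3 arrays, among them the adenosine deaminase gene Adarb1.

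Of 8 measured sensors of cytosolic DNA and their partners, 7 were compared and 1 was at least 2-fold higher without DNase II, beside 7.67% of all genes. Their median log2 difference was 0.22, against -0.21 for all genes compared. The gene past 2-fold was Ifi204, an interferon-inducible DNA-binding protein, at 1.91, 34.9 and 3.19. Cgas, the sensor that makes cyclic GMP-AMP from cytosolic DNA, read 1.09, 1.27 and 1.20. Sting1, the adaptor downstream of it, and Lrrfip1 had log2 differences from wild-type of 0.71 and 0.59 without DNase II, both short of 2-fold and both picked with their values in view. The DNA repair genes Xrcc6 and Prkdc read 12.6, 6.56 and 7.57, and 4.0, 2.35 and 3.55. Of the partners of ZBP1 in cell death 7 were measured and 6 were compared, with a median of 0.40. Of these 1 was at least 2-fold higher without DNase II, beside the same 7.67% of all genes. That was Pycard, the inflammasome adaptor ASC, at 4.66, 10.97 and 6.31. Casp8 read 11.1, 18.4 and 12.7, and Cflar, its inhibitor, read 17.4, 9.36 and 12.1. Ripk3, the kinase that ZBP1 binds, read 5.63, 9.04 and 6.60 and was named after its values were seen.

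**Figure D5:**
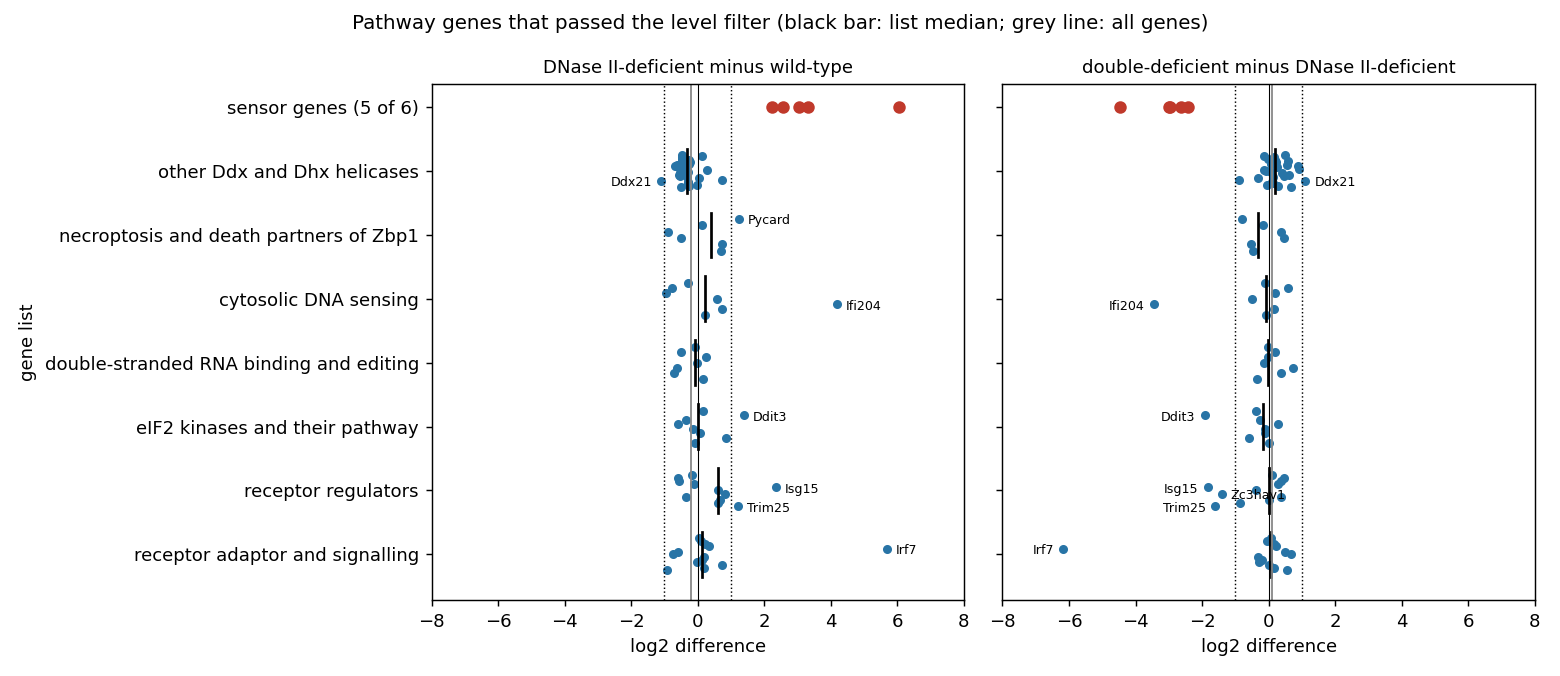
Log2 differences of the genes that passed the level filter in each list, for the 2 comparisons that involve the DNase II-deficient array. Each point is a gene, black bars are list medians, the grey line is the median of all genes compared and dotted lines are 2-fold; the medians of the 7 lists lie between -0.33 and 0.60 in the first comparison.

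Markers of some other cells moved between the arrays as well, and in bulk tissue fewer cells of a type cannot be told apart from less RNA per cell. The summed intensity of 15 macrophage markers was 192.2 in wild-type, 230.8 without DNase II and 208.7 in the double mutant. Of 13 compared, 5 were at least 2-fold higher and 3 lower without DNase II, beside 643 and 517 of all 8383 genes. None was under the floor in all 3 arrays. Those higher included Fcgr1, at 4.22, 21.3 and 6.03. Those lower were Marco, at 41.1, 3.98 and 13.5, Cd5l, at 30.6, 3.41 and 4.10, and Clec4f, at 1.27, 0.177 and 0.0902, the last under the floor. These 3 were also at least 2-fold below wild-type in the double mutant, beside 0.735% of all genes. In that comparison 0 of 13 macrophage markers were at least 2-fold higher. The median log2 difference of the 13 was 0.52, so those 3 went against most of the list. Adgre1, a defining marker of macrophages, was under the array median throughout, at 0.269, 0.282 and 0.271, and was not compared. The summed intensity of 8 granulocyte markers was 268.7, 765.5 and 615.0. Of the 7 compared, 7 were at least 2-fold higher without DNase II than in wild-type. In the double mutant 6 were at least 2-fold above wild-type, beside 2.05% of all genes. For 10 erythroid markers the sums were 1965, 1517 and 1808. As deposited, 6 of 10 were at least 2-fold lower without DNase II, beside 517 of all 8383 genes. They were 3 after cyclic loess and 5 under the 3 other scalings. Lymphoid markers summed to 10.3, 7.34 and 8.50 over 6 genes, of which 3 were under the floor in all 3 arrays. Other lists moved less between DNase II-deficient and wild-type, beside the same 643 and 517 of 8383 genes. Of 7 hepatocyte markers compared 0 were at least 2-fold higher and 1 lower, with a median of 0.12. Of 4 megakaryocyte markers 0 were higher and 0 lower, with a median of -0.08. Of 4 endothelial markers 1 was higher and 1 lower, with a median of -0.24. The part of the marker shifts in the differences of the sensor genes was not tested.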

How the data were processed

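Biotin-labelled RNA made from the poly(A) fraction was hybridised to CodeLink arrays and read with CodeLink System Software, per the labels' protocols. Its version, background method and filters are not given in the sources. The authors deposited 1 normalised intensity per probe and array, unlogged, of which 224 to 267 per array were 0 or negative. A common scale makes each level relative to its array and hides differences in total RNA. The 125 probes, of 20289, with a missing value were not used. Gene names come from the platform annotation, in which 15120 probes have 1 symbol, 38 several and 5131 none.

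Values were raised to each array's 25th percentile and log2 transformed with Python 3.11.15 and pandas 2.3.3. Where a gene had several probes, the one with the highest mean log2 value stood for it, and every probe of the 6 genes is reported. A fold against a value at the floor is a lower bound. Spread is 1.48 times the median absolute deviation over the 500 genes nearest in mean level among those that passed the level filter. Genes named beyond the 6 are up to 3 per list with the largest absolute difference between DNase II-deficient and wild-type, the 3 with the nearest pattern per gene, and those said in the text to be chosen after their values were seen, among them Ddx21 and Ddx24, Eif2ak1, Eif2ak4, Adarb1, Cgas and the markers. The members and lists were chosen with earlier results of these data known. Alternatives were other scalings, floors, filters, probe choices and fold thresholds. The steps were tested on simulated data with the same noise for every probe and differences planted only in genes above the wild-type array median. That simulation does not cover genes that are dim in wild-type, such as Zbp1, Eif2ak2 and Dhx58. Start-site sequences are from RefSeq, and gene coordinates are not used here because the array files name no build. The second promoter motif that was searched is not reported here.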

Additional observations from a re-analysis of the deposited data

How the results depend on the processing

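Under quantile normalisation, 75th percentile scaling, cyclic loess and centring on the median, the counts of sensor genes past 2-fold were unchanged: 5 without DNase II against wild-type, 5 between the mutants and 0 in the double mutant against wild-type. In the first 2 comparisons the counts lay between 4 and 6 under all alternatives: 6 without a level filter, which adds Dhx58, and 4 with the filter at the 75th percentile or the dimmest probe, both of which lose Eif2ak2. In double-deficient minus wild-type the count became 1 without a level filter, through Zbp1, and 1 at a 1.5-fold threshold, through Ifih1. The bound for Dhx58 rests on the floor: with the floor at the 10th percentile it was 2.54 and -2.58 on the log2 scale in the first 2 comparisons. With the floor at the array median Dhx58 had no measured value, and the 0.01 left for Zbp1 and Eif2ak2 in double-deficient minus wild-type is the gap between floors. With the 4 other scalings the regulators at least 2-fold higher without DNase II rose from 2 to up to 3, but they were 1 with the floor at the median (median log2 difference 0.17) and 0 of 4 with the filter at the 75th percentile (median -0.37), against a median of 0.60 as deposited. The counts of eIF2 pathway genes and death partners rose from 1 to up to 2 with those scalings. The promoter matches are 0 of 6 before the start, 3 with 50 more bases, and 2 and 4 with the shorter core.

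Scaling moved the balance over all genes. In DNase II-deficient minus wild-type, higher genes were 55.4% of calls as deposited and 65.8%, 67.1%, 73.6% and 73.6% under the 4 scalings in the order above, with the median of all genes at -0.21, -0.07, -0.07, 0.01 and 0. In double-deficient minus DNase II-deficient they were 39.0% and 25.3% to 31.7% for loess and quantile normalisation, with 26.8% after centring. The 5 log2 differences of the first comparison were then between 2.25 for Eif2ak2 and 6.25 for Zbp1. With the filter at the 75th percentile, 310 and 321 genes were higher and lower in the first comparison, against 643 and 517. Between the mutants they were 158 and 192 against 258 and 403, and between double-deficient and wild-type 67 and 25 against 167 and 60. Without a filter the last were 259 and 97. With 1 array per genotype, no array can be left out. No paired analysis was possible because each genotype has 1 array.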

Other observations

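Some pathway genes read about as high in the double-deficient array as in the DNase II-deficient array. They were picked after their values were seen, and none reached 2-fold. Sting1, the adaptor that responds to the product of cGAS, read 4.73 in wild-type, 7.77 in the DNase II-deficient array and 8.61 in the double-deficient array. Ikbke, a kinase downstream of MAVS, read 4.47, 7.37 and 7.41, and Cyld, a deubiquitinase that restrains RIG-I signalling, read 5.78, 9.14 and 9.29. In double-deficient minus wild-type their log2 differences were 0.86, 0.73 and 0.69, beside spreads of 0.29, 0.27 and 0.28 among genes of like level, and they ranked 223, 287 and 316 from the top of 8158 genes. Under the other scalings tried these differences stayed between 0.91 and 0.95, 0.78 and 0.82, and 0.73 and 0.78. Between the 2 mutant arrays Sting1 differed by 0.15, Ikbke by 0.01 and Cyld by 0.02. The last 2 change sign with the scaling, at -0.13 to -0.07 and -0.13 to -0.06. Each gene rests on 1 probe and 1 array per genotype.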
